A study of Caenorhabditis elegans with 4 samples.

Results

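ELT-1::GFP binding regions that lay close together along the chromosomes of Caenorhabditis elegans are described here. They were chosen by position alone. Regions of the authors' combined list whose midpoints lay at most 2000 bp apart were joined, and the joined groups of 3 or more regions were kept. This gave 206 regions in 56 clusters, or 8.08% of the 2548 combined regions. The other regions stood in 238 groups of 2 (476 regions) or alone (1866 regions). Since position in the combined list chose the clusters, and that list is not independent of the ChIP samples, every value below is a description and none has a test.

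The study measured where ELT-1 tagged with GFP bound DNA, by chromatin immunoprecipitation and sequencing (ChIP-seq). There were 2 ChIP samples, precipitated with anti-GFP antibodies, and 2 input samples of the same kind of chromatin. All came from L3 larvae, hermaphrodites of strain OP354. It carries the mutation unc119(ed3) and the transgene wgIs354, which joins elt-1::TY1 EGFP FLAG with unc119. The worms were grown at 20 °C and fixed in 2% formaldehyde. The labels name no other treatment or age. Per the labels, the transgene was made by recombineering and brought in by bombardment, and its copy number is not stated. In region lists, DNA of such a transgene and DNA of the elt-1 gene cannot be told apart. Whether the replicates were separate cultures is not stated.

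ELT-1 belongs to the GATA family of transcription factors, which bind DNA through zinc fingers at short sites that hold the letters GATA. In C. elegans it is known as a regulator that specifies epidermal cells in the embryo, and it acts later in the seam cells of the larval epidermis. A transcription factor may bind one gene at several separate elements, such as a promoter, an intron and more distant enhancers. In a ChIP-seq list these can appear as neighbouring regions. The coordinates are in WormBase WS220, and the gene table used here is in another assembly, so no region was assigned to a gene.

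Each region name carries a number, by which regions are ordered here. A low number is called good here, because beyond the regions at the highest score the number followed the authors' score in both replicate lists. The highest score was shared by 2507 regions of replicate 1 and 2733 of replicate 2, and the combined list has 1 score throughout. For nearly all numbers given below, the score therefore does not show that a lower number means stronger binding. Read depth is unknown, so a number has no counting error of its own. The spread between samples can be read from the numbers of the overlapping regions in replicate 1 (28238 regions) and replicate 2 (26327 regions). Where a region overlapped several replicate regions, the one with the best number was used.

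Most clusters were small. There were 36 clusters of 3 regions, 14 of 4, 2 of 5, 2 of 6, 1 of 8 and 1 of 12. The 6 clusters of 5 or more held 42 of the 206 regions. From the first base of the first region to the last base of the last, the clusters spanned 1129 to 12096 bp, with a median of 2860 bp. Their regions covered a median of 38.75% of that span. All clusters together spanned 179886 bp, or 0.179% of the nuclear genome.

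Some list entries overlapped, and a count of regions is then not a count of separate places. Of the 206 cluster regions, 34 (16.5%) overlapped a neighbouring combined region, against 50 of the 2342 regions outside clusters (2.13%) and 3.3% of all combined regions. Overlap needs a close neighbour, so the rule itself favours it. These entries lay in 15 of the 56 clusters. With overlapping members joined, 47 clusters still held 3 or more separate places. In 1 cluster, on II from 8418717 to 8421604, the 4 entries were 2 intervals listed under 2 numbers each. The interval from 8418717 to 8420076 was listed as 785 and 1320, and that from 8420006 to 8421604 as 523 and 618. With widths of 1360 and 1599 bp they were wider than all other cluster regions, and for all 4 entries the best overlapping region in replicate 2 was the same, number 94. That cluster therefore does not show 3 separate places.

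The 12 regions of the largest cluster, on IV from 9607040 to 9619135, held 6 of the 21 cluster regions among the 100 best of the list. The RefSeq table also lists elt-1 on chromosome IV, but whether the cluster lies at that gene was not determined. Reading along the chromosome, the first region (9607040 to 9607423) had combined number 873, with 2040 in replicate 1 and 487 in replicate 2. The second, from 9607980 to 9608239, was number 23, with 30 and 29 in replicates 1 and 2. The third, from 9609180 to 9609410, was number 84, with 87 and 156. This stretch thus began with a high number followed by 2 low ones.

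The fourth region of the IV cluster, from 9610028 to 9610411, was the least alike between samples. Its combined number was 2249, against 10048 in replicate 1 and 689 in replicate 2. Its next neighbours were steadier: the region from 9611033 to 9611250 was number 169, with 220 and 155, and that from 9611609 to 9611992 was number 301, with 295 and 298. The seventh, from 9613177 to 9613307, was number 104, with 133 and 153 in the replicates.

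The best numbers of the IV cluster stood in its right part. The region from 9614093 to 9614503 was number 3, with 4 in replicate 1 and 8 in replicate 2. Next to it, the region from 9615324 to 9615967 was number 1 in all 3 lists, and at 644 bp it was the widest of the cluster. The 3 regions after it (9617378 to 9617686, 9618061 to 9618399 and 9618954 to 9619135) were numbers 60, 10 and 138. Replicate 1 gave these 72, 8 and 183, and replicate 2 gave them 98, 24 and 161. In all, 9 of the 12 regions were among the 254 best of the combined list. The regions of the IV cluster did not overlap each other. The next combined region lay 37486 bp to the left and 51185 bp to the right.

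The cluster of 8 regions on X, from 10764954 to 10771421, had low numbers at 2 places. At the right, 10769338 to 10769625 was number 21, with 18 and 57 in replicates 1 and 2. At the left, 10766078 to 10766341 was number 48, with 49 and 70. That region overlapped 10766234 to 10766617, number 721, and both had the same best overlapping region in each replicate. Each of these 2 entries overlapped 2 regions of replicate 1 and 2 of replicate 2. The region from 10766884 to 10767267 was number 887, but 7612 in replicate 1 and 470 in replicate 2. The remaining 4 were numbers 859, 1677, 357 and 758 from left to right. Replicate 1 gave these 872, 1682, 229 and 516, and replicate 2 gave 1377, 2086, 1235 and 2043.

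The cluster of 5 regions on X, from 13141386 to 13146565, began with its best region. That region, from 13141386 to 13141728, was number 27, with 46 in replicate 1 and 26 in replicate 2, and the replicate midpoints coincided. The next 4 were numbers 744, 1827, 362 and 1948. In replicate 1 these were 903, 1597, 293 and 6555, and in replicate 2 they were 441, 2381, 703 and 1044. The last of them was much lower in replicate 2 than in replicate 1, and its replicate midpoints lay 268 bp apart.

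Of the clusters of 6, that on V held overlapping entries and that on II held none. On V, from 4505520 to 4509817, 2 of the 5 gaps were between overlapping entries (178 and 222 bp between midpoints). The best region there, 4507852 to 4508048, was number 87, with 74 in replicate 1 and 179 in replicate 2. Its overlapping neighbour was number 2136 but had the same best overlapping region in each replicate. The region from 4507158 to 4507541, number 1976, overlapped number 939 of replicate 1 and nothing in replicate 2. It was the only cluster region without a partner in one of the replicates.

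On II, from 6827322 to 6833315, the best region was the last, 6833083 to 6833315, number 145, with 178 and 164 in replicates 1 and 2. The first 3 were numbers 1292, 978 and 1147, and the next 2 were 2481 and 2270. For those 2, replicate 1 gave 2789 and 2043, against 8015 and 5926 in replicate 2. A second cluster lay 3475 bp to the left of this one, measured between midpoints. It held 4 regions from 6821310 to 6824230, numbered 111, 53, 266 and 1520. The 2 clusters together put 10 regions into 12006 bp, close to the 12096 bp of the IV cluster, with 3 of the 254 best regions against 9 there.

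The cluster of 5 on I, from 8985879 to 8989940, was led by 1 region. Its first region, 8985879 to 8986274, was number 7, with 11 and 6 in replicates 1 and 2. The others were numbers 657, 1337, 2450 and 1526. Replicate 1 gave them 847, 1749, 2742 and 1853, and replicate 2 gave them 807, 1220, 7988 and 2938.

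**Figure D1:**
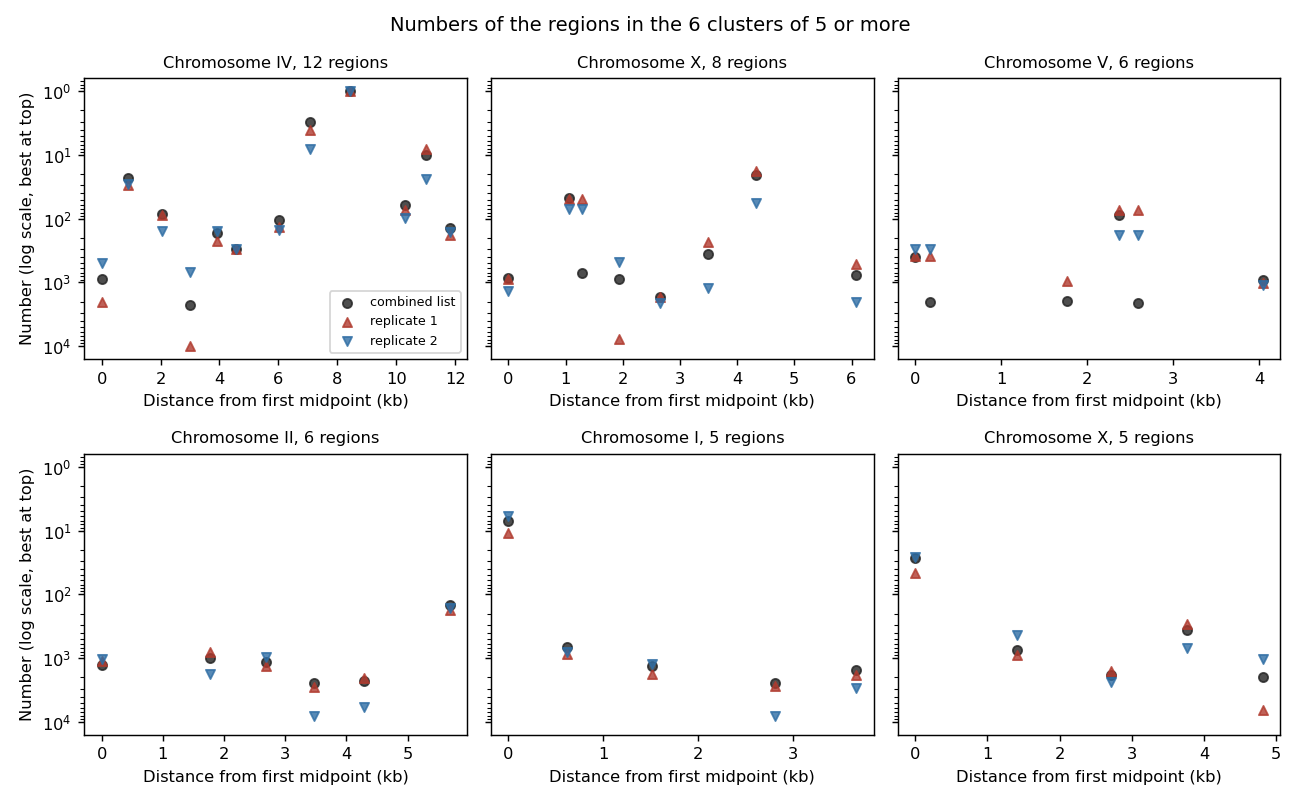
Number of each region (vertical axis, log scale, best at the top) against the distance of its midpoint from the first midpoint of its cluster in kb (horizontal axis), for the 6 clusters of 5 or more regions. Circles are the combined list, upward triangles replicate 1 and downward triangles replicate 2. In the cluster on IV 9 of 12 regions were among the 254 best, and in the cluster on I the first region, number 7, stood far above the other 4.

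Among smaller clusters, 2 on V stood out by the numbers of their regions. The cluster from 14504729 to 14507077 held number 2 of the whole list, at 14506715 to 14507077, which was number 3 in both replicates. Beside it lay number 67 (63 in replicate 1 and 163 in replicate 2) and number 2229 (7167 and 934). The cluster from 19428139 to 19429939 held numbers 260, 58 and 5. Replicate 1 gave these 294, 137 and 15, and replicate 2 gave 227, 36 and 5. It was 1 of 2 clusters whose regions were all among the 500 best. The other was on III, from 1923563 to 1926671, with numbers 79, 96 and 200 (83, 68 and 150 in replicate 1, and 138, 181 and 637 in replicate 2). Among the clusters of 4 on III, the one with the best number ran from 8794676 to 8797507. Its regions were numbers 839, 237, 1648 and 658, and numbers 237 and 1648 overlapped.

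The numbers of cluster regions were lower, that is better, than those of the rest of the list. Their median was 829.5, against 1161.5 in groups of 2 and 1353.5 for single regions. Of the 206, 47 (22.8%) were among the 254 best, against 59 of 476 in groups of 2 (12.4%) and 148 of 1866 single regions (7.93%). Over the whole list the 254 best are 9.97%. In the replicate lists the medians of the best overlapping numbers were 848 in replicate 1 and 681 in replicate 2 for cluster regions. In groups of 2 they were 1096.5 and 1059, and for single regions 1379 and 1464. Overlapping entries share partners, and without them the cluster medians were 915.5 in replicate 1 and 970 in replicate 2. Without the IV cluster the median number was 856.5, and 38 of 194 regions (19.6%) were among the 254 best. Cluster regions that overlapped no neighbour had a median combined number of 852.

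The share of regions in clusters was highest among the best numbers. Of the regions numbered 1 to 100, 21 (21%) stood in clusters, and of those numbered 101 to 254, 26 (16.9%). Between numbers 501 and 1000 the share was 10.2%, and between 2001 and 2548 it was 4.38%. The shares did not fall evenly, with 5% at 1001 to 1500 and 7.4% at 1501 to 2000. Without the IV cluster the share among the 100 best was 15 of 94 (16%). On each chromosome the median number was lower in clusters than outside them. It was 356.5 in clusters and 1340 outside on IV, 759 and 1377 on V, and 818 and 1324 on III. The value on IV rested on the cluster of 12, without which the other 20 cluster regions of IV had a median of 720.5. On X it was 856.5 in clusters and 1273 outside, on I 930 and 1274, and on II 1244 and 1341. The gap was smallest on II, where both medians lay near the middle of the list.

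**Figure D2:**
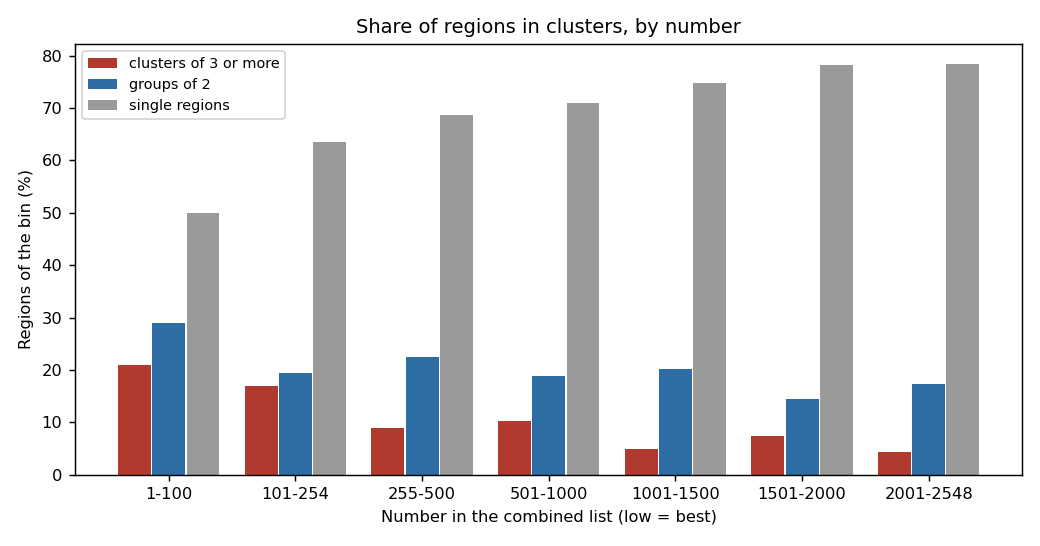
Share of the regions in each range of numbers (horizontal axis, low is best) that stood in clusters of 3 or more, in groups of 2 or alone (vertical axis, %). Clusters held 21% of the 100 best regions and 4.38% of those numbered 2001 to 2548, and single regions held 50% and 78.3%.

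Within the clusters, 28 of 56 (50%) held at least 1 of the 254 best regions, and 17 of these held exactly 1. Of the groups of 2, 53 of 238 (22.3%) held at least 1. A cluster has more regions than a group of 2, so a higher share is built into its size. The best region of each cluster had a median number of 252. The other 150 cluster regions had a median of 1130, with 19 (12.7%) among the 254 best. A best region is chosen as the lowest number of 3 or more, so a low median is built into it. In groups of 2 the better regions had a median of 611 and the other regions 1728. The highest numbers of the clusters had a median of 1779, and a high median is likewise built into them. Of the 206 cluster regions, 75 (36.4%) were in the lower part of the list, beyond number 1274.

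Numbers differed within a cluster. The highest number was a median of 5.06 times the lowest, and over 10 times in 19 of 56 clusters. Both are chosen as extremes of 3 or more regions, so a wide ratio is built into them. Adjacent cluster regions differed by a median factor of 2.70, and the regions of groups of 2 by a median factor of 2.25. Of the clusters, 39 held a region among the 500 best, 11 held 2 or more among the 254 best, and 6 held none among the 1000 best. These counts also depend on how many regions a cluster has. The highest best number, 1467, was that of a cluster of 4 on II from 178318 to 183493. By size, regions in clusters of 5 or more had a median of 732.5, those in clusters of 4 had 795.5, and those in clusters of 3 had 900. The shares among the 254 best were 35.7%, 17.9% and 20.4%. Without the IV cluster, which held 9 of the 15 such regions in clusters of 5 or more, the share there was 6 of 30 (20%) and the median 908.

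**Figure D3:**
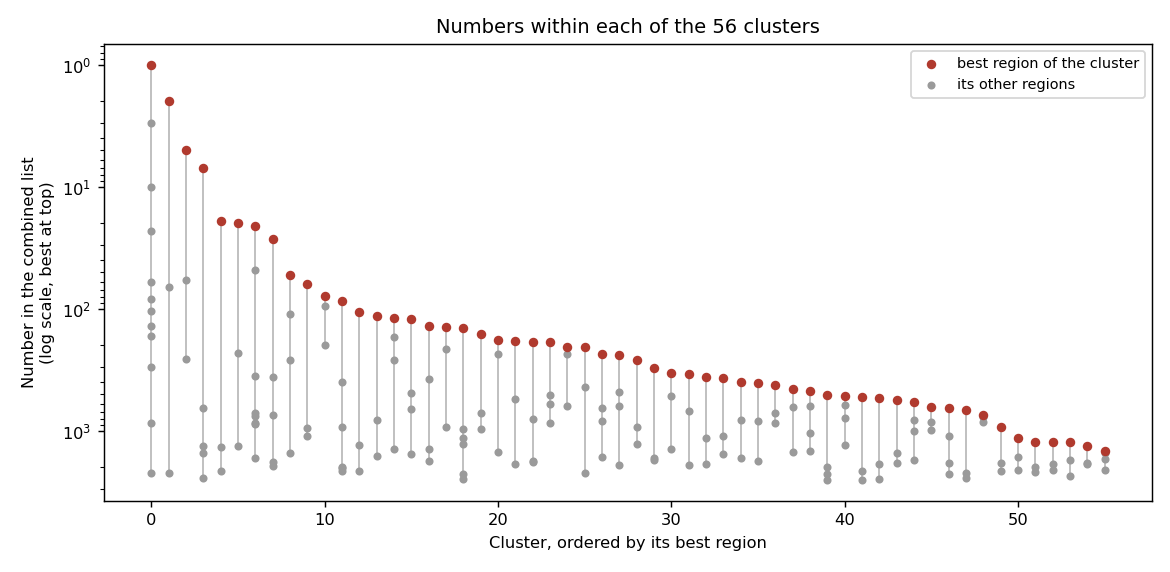
Number of every cluster region in the combined list (vertical axis, log scale, best at the top), with the 56 clusters ordered by their best region (horizontal axis). Red points are the best region of each cluster, grey points its other regions, and lines join a cluster's regions. Best regions ran from number 1 to number 1467, while most clusters reached down into the lower part of the list.

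The best region held no fixed place within a cluster. In the 36 clusters of 3 it was the first region along the chromosome in 16, the middle one in 10 and the last in 10. In all, the best region stood at an end in 35 of 56 clusters. In a cluster of 3 every place but the middle is an end, so this count does not by itself show a preference for ends.

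The replicates picked the same best region in most clusters where this could be read. In 13 clusters the best region of at least 1 replicate overlapped more than 1 cluster region, which leaves no single choice. In the other 43, the same cluster region had the best number in replicate 1 and replicate 2 in 30. Of all 238 groups of 2, the replicates had the same best region in 157, in a choice between only 2. In each of those 30 clusters the shared best region was also the best in the combined list. Because the combined list is not independent of these replicates, this likeness is not independent evidence.

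Nearly all cluster regions had a partner in both replicates. Of the 206, 205 (99.5%) overlapped a region of replicate 1 and of replicate 2, against 97.5% of all combined regions. The best overlapping region was at the highest score in both replicates for 161 (78.2%), against 1392 of 2342 regions outside clusters (59.4%) and 60.9% of all. In groups of 2 it was 315 of 476 (66.2%). Overlapping entries that share a best replicate region are counted more than once in these shares. The replicate midpoints lay a median of 38 bp apart at cluster regions and 38 bp at regions outside clusters. Numbers in the replicates were within 2 times of each other for 106 of 205 cluster regions (51.7%) and for 1135 of 2280 regions outside (49.8%). They differed by over 10 times for 8 of the 205 cluster regions, a count for which no value outside clusters is at hand.

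Only the best overlapping replicate region was counted as a partner, and overlapping entries often shared it. By this count the 206 cluster regions had 188 different partners in replicate 1. The 205 with a partner in replicate 2 had 188 there. This is not a count of all replicate regions in the clusters. Replicate 1 had 247 regions with a midpoint inside clusters, 20 of them overlapping no combined region, and replicate 2 had 248 and 22. All 34 overlapping cluster regions shared their replicate 1 partner with another cluster region, and 32 did so in replicate 2. Since only the best overlap was kept, the rule itself favours such sharing. It does not show that a replicate had 1 region at such a place. At least 3 different partners were present in both replicates for 46 of 56 clusters. When only the 2548 best nuclear regions of a replicate were counted, 41 clusters held 3 or more of replicate 1 and 40 held 3 or more of replicate 2, and 30 did so in both.

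A width other than the usual 384 bp was present in 71 of 206 cluster regions (34.5%), against 350 of 2342 outside clusters (14.9%) and 16.5% of all combined regions. In groups of 2 it was 86 of 476 (18.1%). In clusters, regions of another width had a median number of 184 and those of the usual width 1335, so another width went with low numbers. This was not particular to clusters. In groups of 2, 31.9% of the better regions and 4.2% of the other regions had another width. The narrowest cluster regions were 96 bp wide, at 802445 to 802540 on V (number 716) and 9381319 to 9381414 on I (number 814). Regions of another width had a median of 218 bp.

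Within clusters the 150 gaps between neighbouring midpoints had a median of 1057.5 bp. There were 20 gaps under 500 bp, 46 from 500 to under 1000 bp, 53 from 1000 to under 1500 bp and 31 above that. The shortest gaps stood apart, and nearly all of them lay between list entries that overlapped each other. Apart from 2 gaps of 0 bp between repeated entries, 17 gaps were under 384 bp, from 156 to 319 bp with a median of 207 bp. Among these 17, only the gaps of 266 bp on II and 319 bp on V separated entries that did not overlap. The others therefore do not show separate places. Over all neighbouring combined regions, 39 gaps were under 250 bp, 7 were from 250 to 499 bp and 46 were from 500 to 749 bp.

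Gap lengths ran on across the joining distance, though gaps were fewer beyond it. Over all neighbouring combined regions, 44 gaps were from 1500 to 1749 bp and 55 from 1750 to 1999 bp. Beyond these, 34 were from 2000 to 2249 bp and 39 from 2250 to 2499 bp. The last gaps within it were 1999 bp on III (regions 1659 and 62), 1999 bp on IV (1794 and 1233) and 2000 bp on X (634 and 16), all in groups of 2. The first beyond it were 2014 bp on X (763 and 1630), 2014 bp on III (484 and 1022) and 2015 bp on III (775 and 49). Of these, the gap on X and that between 775 and 49 separated groups of 2 that would otherwise have made clusters of 4. Inside clusters the longest gaps were 1968 bp on II, 1955 bp on I and 1887 bp on IV, the last between numbers 1 and 60.

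**Figure D4:**
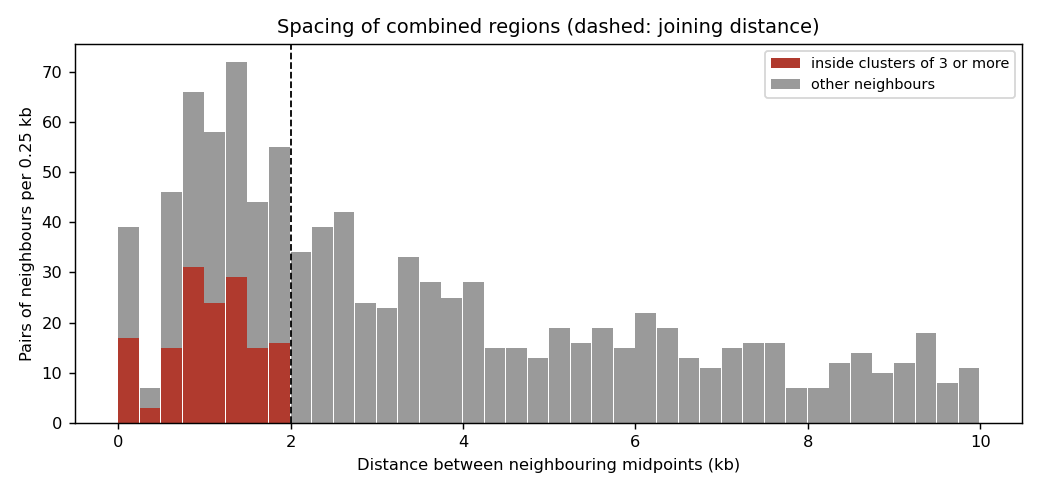
Distances between neighbouring midpoints of combined regions in kb (horizontal axis) and the number of neighbour pairs in each 0.25 kb (vertical axis), up to 10 kb. Red parts are gaps inside clusters of 3 or more, grey parts all other gaps, and the dashed line is the joining distance. Gaps under 0.25 kb (39) stood apart from those above 0.5 kb, with 7 between. Inside clusters, all gaps under 0.25 kb lay between list entries that overlapped each other.

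Clusters were present on all 6 nuclear chromosomes, in unequal numbers. There were 13 on X, 13 on V, 11 on II, 7 on IV, 7 on III and 5 on I. X held 48 of the 206 cluster regions (23.3%), the same share as its 23.3% of all combined regions. Chromosome V held 21.4% of cluster regions and 16.7% of all regions, and II held 19.9% and 16.6%. Chromosome I held 8.74% and 14.6%, and III held 11.2% and 14.5%. On IV the shares were 15.5% and 14.3%, with 12 of its 32 cluster regions in the 1 large cluster. Per length, X had 0.734 clusters per Mb, II 0.72, V 0.622, III 0.508, IV 0.4 and I 0.332.

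**Figure D5:**
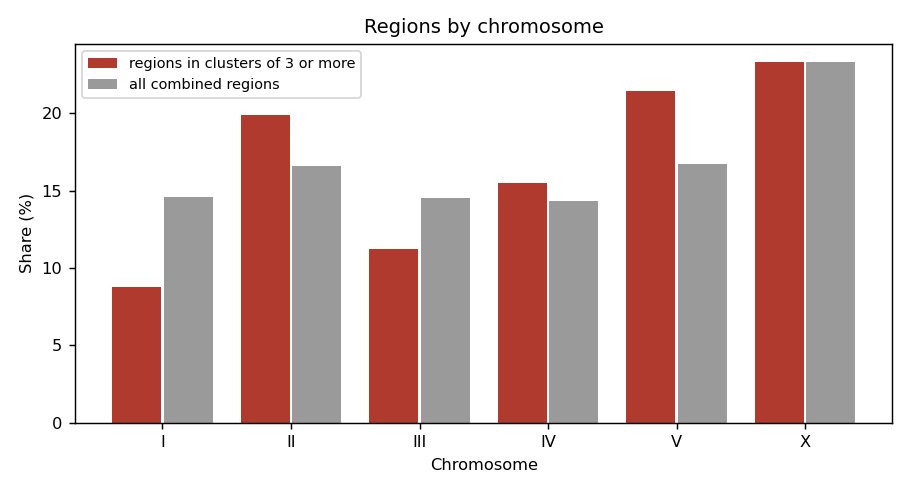
Share (vertical axis, %) of the regions in clusters of 3 or more (red) and of all combined regions (grey) on each chromosome (horizontal axis). Both shares were 23.3% on X, while on I clusters held 8.74% against 14.6% of all regions.

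Along the chromosomes, 167 of the 206 cluster regions (81.1%) lay in the centre, here all but the outer 20% at either end, against 71.9% of all combined regions. On the autosomes 131 of 158 cluster regions (82.9%) were central, close to groups of 2 (83.1%) and above single regions (72.4%). On X 36 of 48 cluster regions (75%) were central, above groups of 2 (61.8%) and single regions (59.2%). Regions of a cluster share their place, so these shares rest on 13 clusters on X. Dense parts of a chromosome hold more close neighbours under any rule of this kind, and the part of density in these shares was not tested.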

How the data were processed

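ELT-1::GFP binding regions of L3 larvae were taken from 3 deposited lists, 1 for each ChIP sample and 1 combined list. Per the file headers, coordinates follow WormBase WS220. The deposited files name SPP, a peak caller, and IDR (irreproducible discovery rate) as their source. No aligner, version, threshold or use of input is stated. The authors gave every region a score of unstated meaning, which is capped in the replicate lists and constant in the combined list. Regions were therefore ordered by the number in their name, which followed the score (Spearman's rho across regions -0.9996 in replicate 1 and -0.9994 in replicate 2). This does not test the number among the 2507 and 2733 regions that share the capped score, which covers most of the numbers reported. For the alternatives that use 1 replicate, nuclear regions were ordered by score, then by number.

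Midpoints were rounded down and joined at 2000 bp or less. Regions of different lists were matched by an overlap of at least 1 bp. The region files hold no read counts, so depth is unknown, and input samples were not analysed here. Chromosome length was the largest coordinate in any list. Named regions were those of clusters of 5 or more, of the largest cluster on each chromosome, of clusters with the 5 best numbers, the gaps next to the joining distance, and the widest and narrowest regions. Other clusters were named with their values already known. The members, measures and alternatives were chosen with earlier results of these data known. The planned motif and gene descriptions need a WS220 sequence or annotation and were not made. The tools were pandas 2.3.3, numpy 2.4.6, matplotlib 3.10.9 and scipy 1.17.1 under Python 3.11.15. The joining and matching functions were tested on simulated lists.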

Additional observations from a re-analysis of the deposited data

How the results depend on the processing

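The number of clusters depended on how neighbours were joined. Joining at 1000, 3000 and 4000 bp (the last added after seeing the data) gave 16, 87 and 111 clusters in place of 56, with 53, 333 and 435 regions in place of 206. These were 2.08%, 13.1% and 17.1% of the list in place of 8.08%. Median spans were 1779.5, 3944 and 4735 bp in place of 2860 bp. The median number of their regions was 650 at 1000 bp and 974 at 4000 bp in place of 829.5. At 4000 bp, 17.2% were among the 254 best in place of 22.8%, and 27.1% had another width than usual (26.4% at 3000 bp) in place of 34.5%. Distances between edges gave 10.6% of regions in clusters and a median span of 3369.5 bp, and joining overlapping entries first gave 6.83%. Clusters of 4 or more numbered 20, with 98 regions (3.85%) and a median span of 4180 bp.

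The better-ranked part of the list, numbers up to 1274, gave 18 clusters with 67 regions, or 5.26% of that part. Their median number was 357, 56.7% had another width, 100% overlapped both replicates and the replicate midpoints lay a median of 25 bp apart. The cut itself fixes a lower median number. It also favours other widths, which went with low numbers. A reciprocal overlap of 50% lowered the share with a partner in both replicates to 81.1%, against 99.5%. A region under 50% as wide as its partner cannot reach this, so the value depends on width. No such value outside clusters is at hand. With 1 replicate left out, clusters were built from the 2548 best nuclear regions of the other. These clusters numbered 66 to 73, with 237 to 274 regions (9.3% to 10.8% of the list), 21.9% to 22.3% of them on X, and median spans of 2797 to 2901 bp. Leaving out the IV cluster, added after seeing the data, gave 55 clusters with 194 regions. It moved the median number on IV to 720.5, against 356.5, and the share of clusters of 5 or more among the 254 best to 20%, against 35.7%. For all cluster regions together the median became 856.5 and that share 19.6%. Cluster regions on X made up 19.3% to 28.1% under every alternative run. No paired analysis was possible because only ChIP lists were used and no result comes from a test. With unknown depth, a region missing from a list cannot be called unbound.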

Other observations

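Inside the spans of the clusters, each replicate list also held regions that overlapped no combined region. There were 20 such regions of 247 with a midpoint inside a cluster in replicate 1, and 22 of 248 in replicate 2, each set in 16 clusters. In replicate 1 the best of them was number 3027, on IV at 9612425 to 9612800, in a gap of the cluster of 12. In replicate 2, 5 of the 22 were among its 2548 best nuclear regions, against 0 of the 20 in replicate 1. The best was number 244, on I at 5812859 to 5813242. It lay in a cluster of 3 whose combined regions were numbers 1242, 2118 and 1883. The replicate 1 regions in the same gap were numbers 3561, 14380 and 15252, so the replicates ranked that place far apart. Within the IV cluster both replicates had an unlisted region between numbers 1 and 60, at 9616520 to 9616895 in replicate 1 (number 4550) and 9616521 to 9616904 in replicate 2 (number 2531).

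Clusters differed in how alone they stood. The nearest other combined region lay a median of 5970 bp from a cluster. For 20 clusters it was within 4000 bp, and for 22 it was more than 10000 bp away. Besides the pair of clusters on II, a pair on X, at 6736346 to 6738809 and 6742154 to 6744100, lay 3607 bp apart and put 7 regions into 7755 bp. The best of these was number 20, at 6743774 to 6744100, which was also number 20 in replicate 1 and number 45 in replicate 2.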
